A study of Mus musculus with 2 samples.

Results

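The 10 heat shock and chaperone genes described here, of 27998 gene names in the deposited tables, were taken by name: Hspa1a, Hspa1b, Dnajb1, Hsph1, Hsp90aa1 and Hspb1, which heat or other protein damage is known to induce, and Hspa8, Hsp90ab1, Hspd1 and Hspe1, which most cells express all the time. All 10 names were found in both libraries. The libraries came from 1 old C57BL6/J mouse (18 months) and 1 young C57BL6/J mouse (8 weeks), with no transgene or treatment given in the labels. Cells of the inner surface of the aorta had been freed with trypsin and scraping, and droplet libraries were read from the 3′ end of each transcript. With 1 animal per age there is no replicate and no test between ages, and age, animal and library cannot be told apart. Every interval below is a 95% interval that covers counting error only.

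Chaperones bind unfolded stretches of proteins and help them to reach or regain their shape. When damaged proteins pile up, the transcription factor HSF1 is released from chaperones, binds heat shock elements in promoters and drives the inducible members, and this response can be set off while a tissue is being taken apart. The constitutive members do the same work in unstressed cells, in the cytosol (Hspa8, Hsp90ab1) or in mitochondria (Hspd1, Hspe1). In endothelium, Hsp90 proteins are also known as partners of nitric oxide synthase, and Hspb1 as a regulator of actin filaments.

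The old library held 3408 barcodes with a median of 4737 UMIs (unique transcript tags), and the young library 1366 with a median of 7558.5. The libraries shared 11 barcode sequences. Marker genes named 2422 old and 1095 young cells as EC-like (endothelial), and 572 old and 239 young cells as fibroblast-like. Of 10 endothelial markers all were detected in EC-like cells of both libraries, while Kdr was seen in 2.31% of old and 2.65% of young cells. Different clusters held most EC-like cells of each library: cluster 2 (1238 cells), cluster 3 (654) and cluster 0 (493) in old, and cluster 6 (608) and cluster 9 (414) in young. Blood cell classes were small in young, with 155 old and 13 young monocyte or macrophage-like cells, 123 and 10 T or NK-like cells, and 47 and 2 erythroid-like cells.

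Promoter windows of 300 bases (250 before the annotated start and 50 after it; RefSeq, GRCm38.p6) were given for 7 of the 10 members and were searched on both strands for heat shock elements. The motif of 2 units was GAANNTTC or TTCNNGAA, and the motif of 3 units, which contains it, adds a further GAA or TTC in turn after 2 free bases. Over all 32851 windows, 0.603% held the 3-unit motif and 15.1% the 2-unit motif. The members with a 3-unit match were Hspd1, Hspe1 and Hsph1. Hspa1a and Hspa1b held 1 match of 2 units each, starting 104 bases before the start, and Hspb1 held 2, starting 117 and 97 bases before it. No match was in the Dnajb1 windows, which says only that these letters are not in them. Hsp90aa1, Hsp90ab1 and Hspa8 had no window.

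The bases just before the start are shown for the inducible members whose stretch lies outside annotated genes, because they let a reader set the near-identical pair Hspa1a and Hspa1b beside Hspb1. Capitals mark the 2-unit matches. The stretches are chr17:34972157-34972316, minus strand, for Hspa1a, chr17:34959239-34959398, minus strand, for Hspa1b, and chr5:135887759-135887918, plus strand, for Hspb1, each 160 bases long.
Hspa1a: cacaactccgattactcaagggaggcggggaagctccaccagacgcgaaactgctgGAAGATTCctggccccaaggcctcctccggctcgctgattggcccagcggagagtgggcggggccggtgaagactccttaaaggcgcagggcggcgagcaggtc
Hspa1b: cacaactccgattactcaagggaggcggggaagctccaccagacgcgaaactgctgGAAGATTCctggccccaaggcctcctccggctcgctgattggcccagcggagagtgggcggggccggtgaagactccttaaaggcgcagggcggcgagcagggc
Hspb1: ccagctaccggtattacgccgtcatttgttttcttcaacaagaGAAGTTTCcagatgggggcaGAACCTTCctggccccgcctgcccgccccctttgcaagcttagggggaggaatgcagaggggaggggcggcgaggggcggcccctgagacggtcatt

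The Hspa1a and Hspa1b stretches differ at 1 of 160 bases, and their whole windows are identical at 296 of 300. The 3-unit matches are shown next, because those of Hspd1 and Hspe1 are one and the same stretch. These genes lie head to head on chromosome 1, and the element at chr1:55088059-55088076 reads on the minus strand for Hspd1 and on the plus strand for Hspe1. It holds 2 overlapping 3-unit matches, starts 89 bases before the Hspe1 start, and lies in an exon of an Hspd1 transcript in GENCODE vM21. Hspd1 had 2 windows, and the element starts 144 bases before the start of the first. The other, chr1:55088194-55088493, held no match of either motif. The Hsph1 element lies at chr5:149636288-149636300, minus strand, inside an Hsph1 exon. Hsph1 had 2 windows, and the element lies 15 bases after the RefSeq start of the first and 36 after that of the second.
Hspd1: TTCCGGAAGGTTCTAGAA
Hspe1: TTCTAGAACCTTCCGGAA
Hsph1: TTCTGGAAAGTTC

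In EC-like cells the 6 inducible members together differed little between the libraries, while those with low levels were lower in old and the constitutive members slightly higher. Levels are given as CPM, UMIs scaled to the total UMIs of the class. The 6 inducible members together stood at 951 CPM in old and 990.1 CPM in young, a log2 ratio of -0.06 (interval -0.10 to -0.02) that was 0.00 under a stricter cell filter and 0.03 with each cell of equal weight. The 4 low inducible members Hspa1a, Hspa1b, Dnajb1 and Hsph1 stood at a summed 154 CPM in old and 208 CPM in young, a log2 ratio of -0.43 (-0.52 to -0.34). Of these 4, 3 had intervals below 0, and that of Hspa1b spanned 0. The 4 constitutive members together stood at 2624 CPM in old and 2386 CPM in young, a log2 ratio of 0.14 (0.11 to 0.16). The median gene of the class lay at 0.06, and 41.2% of genes tested were lower in old. Of all 10 members 2 were lower by at least 0.5 on the log2 scale, Dnajb1 and Hsph1, and 0 were higher by as much, where 6.34% of all 10053 genes tested were lower and 7.43% higher by that measure. The plot of log2 ratios by member shows both classes.

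**Figure D1:**
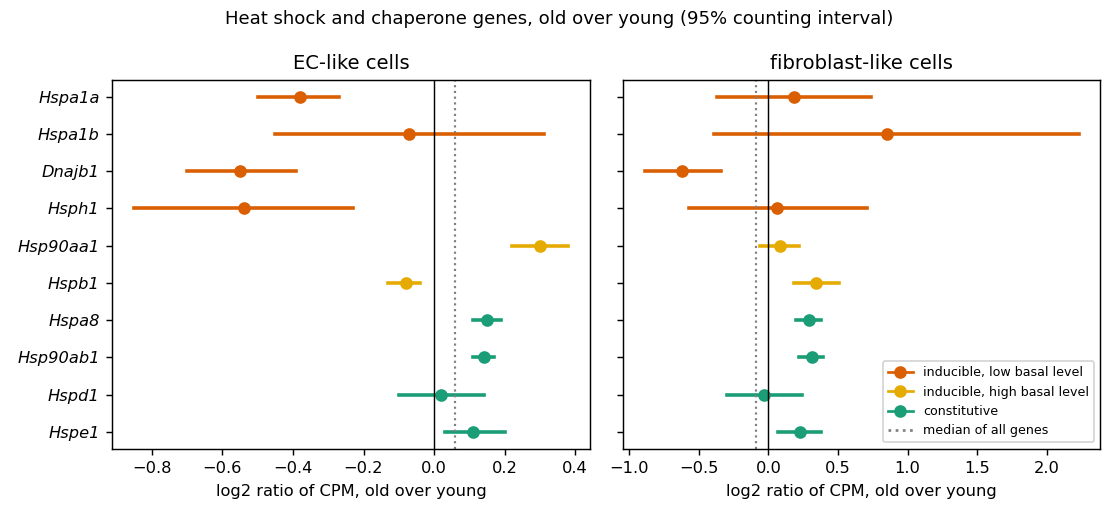
Log2 ratio of CPM, old over young (x axis), for each member (rows) in EC-like cells (left panel) and fibroblast-like cells (right panel). Points are ratios, bars 95% counting intervals, colours the member groups and the dotted line the median of all genes. The panels differ in scale. Hspa1a, Dnajb1 and Hsph1 lie left of 0 in EC-like cells, and Dnajb1 at -0.62 is the one member with its interval below 0 in fibroblast-like cells.

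Hspa1a encodes the main stress-inducible cytosolic Hsp70, and lies at chr17:34969190-34972156 on the minus strand (GRCm38). Its level in EC-like cells was 85.9 CPM in old (1244 UMIs) and 112 CPM in young (1139 UMIs). The log2 ratio was -0.38 (-0.50 to -0.27). The lower level in old was found in both the EC-like clusters led by Coch and Adra2a (71.2 CPM in old, 115 CPM in young) and the other EC-like clusters (90.4 CPM in old, 109 CPM in young). In fibroblast-like cells Hspa1a stood at 25.3 CPM in old and 22.4 CPM in young, with an interval of the log2 ratio that spans 0. The annotated gene Gm20481 overlaps it on the other strand.

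Hspa1b is the neighbouring copy of Hspa1a and encodes a nearly identical Hsp70 protein, at chr17:34956436-34959238. None of the 50-base words in the last 500 bases of either transcript was shared with another gene, so 3′ reads can separate the copies. Its level in EC-like cells was 9.67 CPM in old (140 UMIs) and 10.1 CPM in young (103 UMIs). The log2 ratio of -0.07 had an interval of -0.45 to 0.31, so a difference of the size seen for Hspa1a was not excluded. There were 8.89 UMIs of Hspa1a per UMI of Hspa1b in old (7.46 to 10.7) and 11.1 in young (9.03 to 13.7). In old fibroblast-like cells that ratio was lower, 3.62 (2.21 to 6.18). In young ones it was 5.75, with an interval of 2.69 to 14.1 that takes in the whole EC-like interval.

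Dnajb1 is an Hsp40 co-chaperone that hands clients to Hsp70 and speeds its ATP use. It was lower in old in both classes. In EC-like cells Dnajb1 had 46.6 CPM in old and 68.0 CPM in young, and the log2 ratio was -0.55 (-0.70 to -0.39). Fibroblast-like cells had 73.5 CPM in old and 113 CPM in young, a log2 ratio of -0.62 (-0.89 to -0.34). The 25% of cells of each class and library highest in the early response genes Fos, Jun, Junb and Egr1 were then left out. Without them the ratio was -0.37 (-0.56 to -0.17) in EC-like cells. In fibroblast-like cells it was then -0.21, and the interval of -0.56 to 0.14 spans 0. Summed over old and young fibroblast-like cells, 8 of 10 members had 100 or more UMIs, and Dnajb1 was the 1 of them lower by at least 0.5, where 13.8% of 5606 genes were lower and 6.51% higher by that measure.

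Hsph1, an Hsp110 protein that exchanges the nucleotide of Hsp70, stood at 11.9 CPM in old EC-like cells and 17.3 CPM in young ones. Its log2 ratio was -0.54 (-0.85 to -0.23). In fibroblast-like cells Hsph1 had 55 UMIs in old and 36 UMIs in young, a log2 ratio of 0.06 (-0.57 to 0.71). Hspa1b had 21 and 8, and its interval spans 0 too. In the fibroblast-like cluster led by Ccl11 and Dact2 Hsph1 stood at 0.50 (-0.29 to 1.36). In that led by F3 and Gdf10 it had 0 UMIs in old and 18 in young, with an upper bound of -0.22.

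The Hsp90 pair differed in the other direction. Hsp90aa1, the inducible cytosolic Hsp90, stood at 253 CPM in old EC-like cells and 206 CPM in young ones, a log2 ratio of 0.30 (0.22 to 0.38). This inducible member was thus higher in old while the 4 low inducible members were not. Hsp90ab1, its constitutive partner, had 1448 CPM in old and 1316 CPM in young, a log2 ratio of 0.14 (0.11 to 0.17). In EC-like cells there were 0.174 UMIs of Hsp90aa1 per UMI of Hsp90ab1 in old (0.168 to 0.181) and 0.156 in young (0.149 to 0.164). In fibroblast-like cells the values were 0.304 in old (0.284 to 0.326) and 0.356 in young (0.325 to 0.389). The pair was weighted more to Hsp90aa1 in fibroblast-like than in EC-like cells of both libraries.

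Hspb1, the small heat shock protein also called Hsp25 in mice, stood at 544 CPM in old EC-like cells and 577 CPM in young ones. The log2 ratio of -0.08 (-0.13 to -0.04) did not keep its sign: it was 0.00 under a stricter cell filter and 0.02 with each cell of equal weight. In the EC-like clusters led by Coch and Adra2a Hspb1 had 497 CPM in old and 593 CPM in young, and in the other EC-like clusters 558 CPM in old and 562 CPM in young. In fibroblast-like cells it was higher in old, with 272 CPM in old and 214 CPM in young, a log2 ratio of 0.34 (0.18 to 0.51). The fibroblast-like cluster led by Ccl11 and Dact2 (507 old and 133 young cells) gave 0.29 (0.10 to 0.49). That led by F3 and Gdf10 (65 old and 106 young cells) gave -0.05 (-0.61 to 0.48). The mix of these clusters differed between the libraries, and its part in the Hspb1 ratio was not tested. All 10 endothelial markers were detected in fibroblast-like cells too, at a summed 989 CPM in old and 459 CPM in young. Their part in the Hspb1 ratio was not tested.

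Hspa8, the constitutive Hsp70 that also strips clathrin from vesicles, stood at 889 CPM in old EC-like cells and 799 CPM in young ones, a log2 ratio of 0.15 (0.11 to 0.19). In fibroblast-like cells it had 1005 CPM in old and 821 CPM in young, a log2 ratio of 0.29. Of the 50-base words in its last 500 bases, 68.6% also occur in other annotated transcripts, so its counts are less certain than those of Hspa1a. The share was 53.2% for Hspe1, 39.2% for Hspb1, which shares them with Hsp25-ps1, 29.8% for Hspd1, 24.7% for Hsp90aa1 and 2.25% for Hsp90ab1.

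Hspd1 and Hspe1 encode Hsp60 and its lid Hsp10, which fold proteins inside mitochondria. In EC-like cells Hspd1 stood at 90.6 CPM in old and 89.3 CPM in young, a log2 ratio of 0.02 (-0.10 to 0.14). With cells thinned to equal depth the ratio was 0.26 (0.04 to 0.48). Hspe1 stood at 197 CPM in old and 182 CPM in young, a log2 ratio of 0.11 (0.03 to 0.20). In fibroblast-like cells Hspd1 had 90.8 CPM in old and 92.8 CPM in young, and Hspe1 had 312 CPM in old and 266 CPM in young. Although the element shown above lies in a promoter window of each gene, their ratio was not fixed across classes. There were 2.17 UMIs of Hspe1 per UMI of Hspd1 in old EC-like cells and 2.04 in young ones, with upper bounds of 2.32 and 2.21, against 3.43 in old and 2.87 in young fibroblast-like cells, where the young interval was 2.43 to 3.40.

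Set against each other within a library, the groups do not depend on its total count. The 6 inducible members made up 26.6% of all member UMIs in old EC-like cells (exact Clopper-Pearson interval 26.2 to 27.0) and 29.3% in young ones (28.8 to 29.8). In fibroblast-like cells the share was 22.6% in old (21.7 to 23.4) and 24.9% in young (23.8 to 26.1). The 4 low inducible members against the constitutive ones made 5.55% in old EC-like cells (5.32 to 5.77) and 8.01% in young ones (7.68 to 8.34), and 4.67% in old fibroblast-like cells (4.21 to 5.15) and 6.96% in young ones (6.24 to 7.73). In fibroblast-like cells Dnajb1 gave 221 of the 373 old and 232 of the 322 young UMIs of the 4 low members, while Hspa1a (log2 ratio 0.18), Hspa1b (0.85) and Hsph1 (0.06) had intervals that span 0. The 4 low members together stood at -0.15 (-0.42 to 0.11) in the fibroblast-like cluster led by Ccl11 and Dact2. In that led by F3 and Gdf10 they stood at -0.76 (-1.48 to -0.11). Within EC-like subsets the 4 low inducible members differed by -0.53 on the log2 scale in the clusters led by Coch and Adra2a (138 CPM in old, 199 CPM in young) and by -0.44 in the others (159 CPM in old, 216 CPM in young). Each subset pools different clusters by library, mostly cluster 0 in old and cluster 9 in young for the first. Cluster 3, with 654 old and 25 young cells, had 143 CPM in old (132 to 155) and 128 CPM in young (74.3 to 204). Cluster 0 had 138 CPM in old (125 to 151) and 188 CPM in 29 young cells (127 to 266), and cluster 6 had 112 CPM in 30 old cells (61.1 to 188) and 220.4 CPM in young (208 to 234).

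Classes of one library shared their dissociation, so the contrast between them sits within each animal. Hspa1a stood far lower in fibroblast-like than in EC-like cells, with a log2 ratio of -1.76 (-2.12 to -1.43) in old and -2.33 (-2.78 to -1.90) in young. Hspb1 was also lower, with log2 intervals of -1.11 to -0.90 in old and -1.57 to -1.29 in young. Dnajb1 went against its Hsp70 partner and was higher in fibroblast-like cells, at 0.66 (0.43 to 0.88) in old and 0.73 (0.51 to 0.95) in young. There were 0.344 UMIs of Hspa1a per UMI of Dnajb1 in old and 0.198 in young fibroblast-like cells, against 1.85 in old and 1.65 in young EC-like cells. Hspe1 was higher by 0.66 in old and 0.55 in young, and Hsp90aa1 by 0.44 in old and 0.66 in young. Hspd1 lay at 0.00 in old and 0.06 in young.

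By the 0.5 measure, 3 members were higher in old fibroblast-like cells, Dnajb1, Hsph1 and Hspe1, where 14.6% of 9655 genes were, and 2 were lower, Hspa1a and Hspb1, where 40.8% of genes were. In young, 3 were higher, Dnajb1, Hsp90aa1 and Hspe1, where 18.1% of 8833 genes were. A further 4 were lower in young, Hspa1a, Hspa1b, Hspb1 and Hsp90ab1, where 32.2% of genes were.

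**Figure D2:**
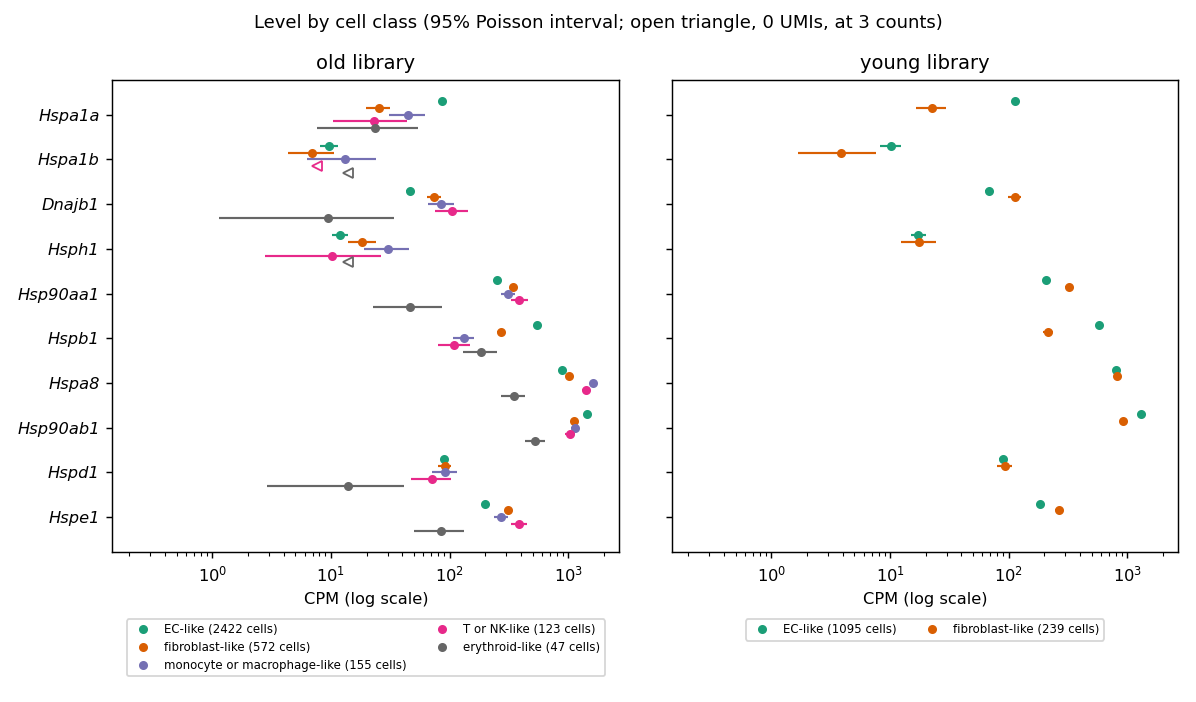
Level of each member (rows) in CPM on a log axis, by class (colours), in the old library (left) and the young library (right). Bars are 95% Poisson intervals, and open triangles mark 0 UMIs drawn at the limit that 3 counts set. Classes under 20 cells are left out, so blood cell classes stand in the old panel alone. Hspa1a and Hspb1 are highest in EC-like cells in both panels, and Dnajb1 is lowest there except against erythroid-like cells.

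The old library also allows the blood cells to be read. Relative to old EC-like cells, Hspb1 had a log2 ratio of -2.04 in monocyte or macrophage-like cells (132 CPM) and of -2.31 in T or NK-like cells (109.9 CPM). Those levels are 24.2% and 20.2% of the EC-like level. The endothelial genes Egfl7, Vwf and Cldn5 stood in the same classes at 17.2% to 21.3% and 15.8% to 20.3% of their EC-like level, and Hspa1a stood at 51.7% and 26.8%. In fibroblast-like cells these genes stood at 10.5% to 12.6% in old and 3.21% to 6.39% in young, and Hspb1 at 49.9% in old and 37.1% in young. The source of these UMIs was not tested. Hspa8 was higher in monocyte or macrophage-like (1631 CPM, log2 ratio 0.88) and T or NK-like cells (1416 CPM, 0.67) than in EC-like cells. Dnajb1 was higher as well, at 84.9 CPM (0.87) and 105 CPM (1.17). Hspa1a was lower, at 44.4 CPM (-0.95) and 23.0 CPM (-1.90), and Hspa1b had 0 UMIs in T or NK-like cells, which allows up to 7.67 CPM.

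Shares of cells with a UMI were compared after each cell was thinned to 3100 UMIs, which kept 1859 old and 990 young EC-like cells and left out 563 and 105 shallower ones. Hspa1a was seen in 21.7% of old (19.8 to 23.6) and 25.3% of young cells (22.6 to 28.1). Dnajb1 was seen in 13.4% of old and 17.4% of young cells (15.1 to 19.9). Without thinning the Hspa1a shares were 35.6% in old and 49.6% in young, so the gap was narrower at equal depth (median 5047.5 UMIs per cell in old and 7373 in young before thinning). Hsp90aa1 was seen in 56.3% of old (54.0 to 58.6) and 46.3% of young cells (43.1 to 49.4), although the unthinned shares, 70.3% in old and 72.1% in young, had the other order. Hspb1 was seen in 73.9% of old and 71.6% of young cells, Hspa8 in 92.4% and 89.9%, and Hsp90ab1 in 99.0% and 97.8%. Hspd1 was seen in 25.6% of old and 22.4% of young cells, and Hspe1 in 44.8% and 41.4%. Hspa1b and Hsph1 stayed under 5% in both libraries. Among 31 thinned erythroid-like cells of the old library the share was 6.45% for Hspa1a (0.791 to 21.4), 3.23% for Dnajb1 (0.0816 to 16.7) and 32.3% for Hspb1 (16.7 to 51.4). Haemoglobin genes took much of the UMIs of these cells (268607 CPM for Hbb-bs alone), which leaves fewer for other genes. Egfl7, Vwf and Cldn5 stood there at 27.8%, 24.4% and 56.8% of their EC-like level. The source of these UMIs was not tested.

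**Figure D3:**
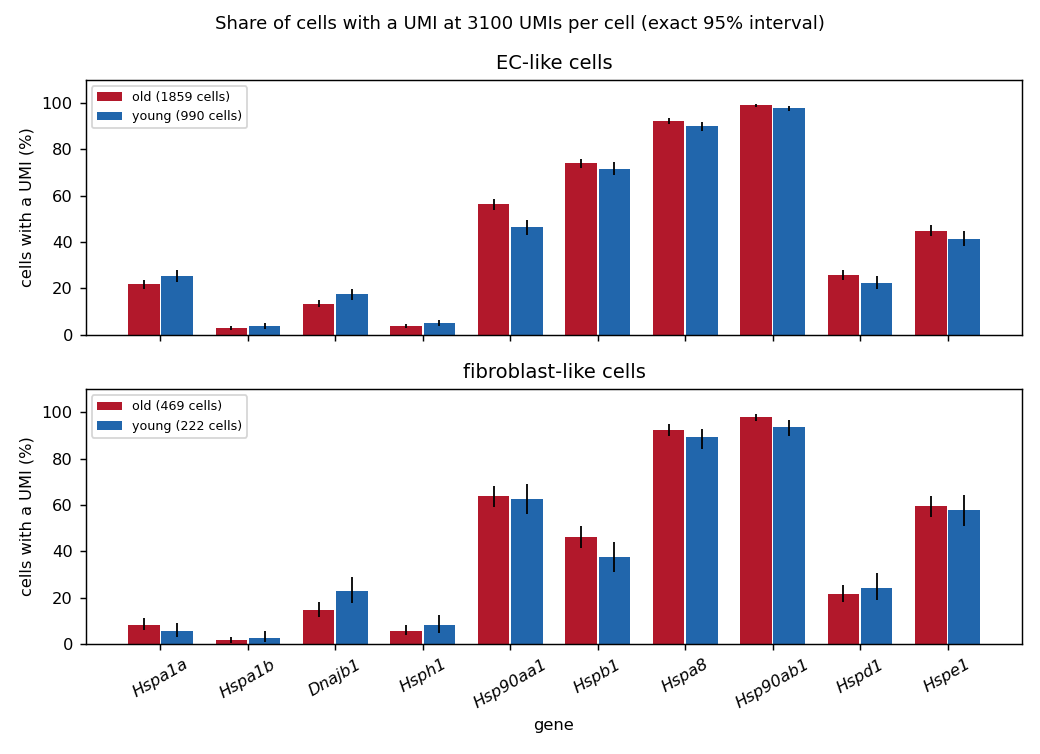
Share of cells with at least 1 UMI of each member (x axis) after thinning to 3100 UMIs per cell, in EC-like cells (top) and fibroblast-like cells (bottom), old bars left of young bars. Error bars are exact 95% binomial intervals. Hsp90aa1 in EC-like cells shows 56.3% in old and 46.3% in young, while Hspa1a and Dnajb1 show the other order.

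The members also differed in how evenly cells carried them. The Fano factor, the variance of UMIs per cell over their mean, is near 1 for a gene with counting noise alone. Hspb1 had 1.69 in old and 2.46 in young thinned EC-like cells, where genes of like mean had medians of 1.07 and 1.10, and it stood above 97.0% of those genes in both libraries. A single cell reached 11 UMIs of Hspb1 in old and 18 in young. Dnajb1 had 1.09 in old and 1.55 in young EC-like cells. The young value includes 1 cell with 9 UMIs, the only young EC-like cell with 5 or more. In fibroblast-like cells Dnajb1 had 2.04 in old and 2.44 in young. Hspa1a had 1.16 in old and 1.28 in young EC-like cells. Hsp90ab1 was more even than like genes, at 1.06 in old and 1.08 in young against 1.21 and 1.26. Hspd1 lay at 1.03 in old and 0.990 in young, and Hspe1 at 0.986 and 0.973.

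**Figure D4:**
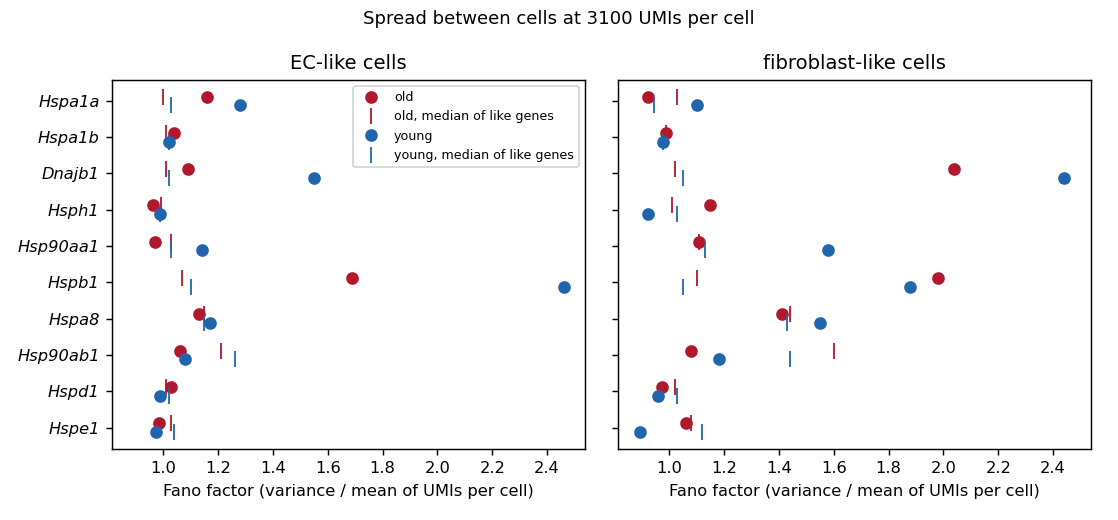
Fano factor of UMIs per cell (x axis) for each member (rows) after thinning to 3100 UMIs per cell, in EC-like cells (left) and fibroblast-like cells (right). Dots are the members in old (red) and young (blue), and ticks the median of genes of like mean. Hspb1 in EC-like cells and Dnajb1 in fibroblast-like cells lie farthest to the right of their ticks.

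Co-detection of the inducible members was counted in thinned cells. At a mean of 0.261 UMIs of Hspa1a and 0.150 UMIs of Dnajb1 per old EC-like cell, only a marked sharing of cells would show. Dnajb1 was seen in 10.7% of old cells with Hspa1a (7.83 to 14.1) and in 14.1% of old cells without it, both EC-like. The young shares were 17.6% (13.1 to 22.9) and 17.3% (14.6 to 20.2). Hsph1 was seen in 3.23% of old cells with Hspa1a and 3.98% without, and in 5.60% and 4.73% of young cells. In old, 78.3% of thinned EC-like cells had 0 UMIs of Hspa1a, 18.0% had 1 and 4 cells had 4. In young, 74.7% had 0, 19.8% had 1 and 1 cell had 5. In young fibroblast-like cells 66.7% of the 12 cells with Hspa1a also had Dnajb1 (34.9 to 90.1), against 20.5% of the 210 without (15.2 to 26.6). Old fibroblast-like cells did not show such a gap. There Dnajb1 was seen in 18.4% of the 38 cells with Hspa1a (7.74 to 34.3) and 14.4% of the 431 without (11.2 to 18.1).

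Genes whose values over thinned EC-like cells were most like the sum of Hspa1a, Hspa1b, Dnajb1 and Hsph1, among 3908 genes seen in at least 10% of cells, were Fos, Klf2, Jun, Zfp36, Cul1, Lztfl1, Ier2 and Glce. Their mean Pearson correlation over the libraries was 0.06 to 0.09, over cells that share a library and a depth. Correlations this weak in sparse counts are no finding. Of the 8, Fos, Jun, Zfp36 and Ier2 belong to the early response gene list.

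Other genes of protein folding give the setting. The 13 measured of 14 further HSF1 targets had a median log2 ratio of 0.07 in EC-like cells, with 9 higher and 4 lower in old. Of all genes tested in that class 58.8% were higher in old, and the median gene lay at 0.06. Dnajb4, another Hsp40 protein, had 41.4 CPM in old and 63.2 CPM in young (log2 ratio -0.61), and the small heat shock protein Hspb8 had 18.0 and 25.6 CPM (-0.51). Hmox1, which breaks down haem, stood at 0.52 (-0.02 to 1.08), and Chordc1, an Hsp90 partner, at 0.50 (0.23 to 0.78). In fibroblast-like cells all 9 targets with enough UMIs were lower in old, with a median of -0.21, where 59.7% of all 5606 genes were lower and the median gene lay at -0.09. Hsf1 itself stood at 21.8 CPM in old and 24.4 CPM in young EC-like cells (-0.17, -0.41 to 0.08).

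Of 14 cytosolic co-chaperones 8 were higher, where 58.8% of all genes were, and 6 lower in old within the EC-like class. Their median was 0.05. Fkbp5, an Hsp90 co-chaperone and a known target of glucocorticoids, stood apart at 11.8 CPM in old and 35.9 CPM in young, a log2 ratio of -1.61 (-1.88 to -1.34), and at -1.27 (-1.66 to -0.89) in fibroblast-like cells. Of 13 measured subunits of the TRiC chaperonin and prefoldin 8 were higher, where 58.8% of all genes were, and 5 lower, with a median of 0.06. Among them Pfdn5 had 1037 CPM in old and 777 CPM in young (0.42), and Pfdn4 had 46.6 and 54.1 CPM (-0.22). The 8 mitochondrial chaperones and proteases outside the member list had a median of -0.04, from -0.36 for Dnaja3 to 0.25 for Clpp.

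A list of 19 genes joined chaperones of the endoplasmic reticulum with genes of its unfolded protein response, transcription factors among them. Of these 14 were lower in old within the EC-like class, where 4146 of 10053 genes were, and their median was -0.17. A difference of at least 0.5 was reached by 3 of them, where 6.34% of genes reached it. Hyou1, an Hsp110 relative of that compartment, had 5.11 CPM in old and 13.5 CPM in young (-1.40), and the disulfide isomerase Pdia4 had 56.7 and 93.0 CPM (-0.71). Ddit3, a transcription factor of prolonged unfolded protein stress, stood at 0.21 (0.02 to 0.41), and Dnajc3 at 0.24. In fibroblast-like cells 15 of 18 were lower, where 3349 of 5606 genes were, with a median of -0.26.

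The early response genes, which dissociation is known to induce within minutes, differed more than any chaperone list in EC-like cells. In old EC-like cells all 16 were lower, where 41.2% of all genes were. By at least 0.5, 12 of them were lower, where 6.34% of all genes were. The median of the 16 was -1.16. Fos had 216 CPM in old and 876 CPM in young (-2.02), and Atf3 had 13.3 and 110.4 CPM (-3.05). Ier2 stood at -0.38 and Nfkbia at -0.06. Summed, the list stood at 4489.7 CPM in old and 8659 CPM in young. In fibroblast-like cells 10 of 16 were lower and 6 higher, where 3349 of 5606 genes were lower. Their median there was -0.48, beside -0.46 for the 2 small heat shock proteins with enough UMIs. The sum of the 16 stood at -0.40, beside -0.36 for the list of the endoplasmic reticulum and its unfolded protein response. Leaving out the 25% of EC-like cells highest in Fos, Jun, Junb and Egr1 of this list left Hspa1a at -0.35, Hsph1 at -0.61 and Hsp90aa1 at 0.33. That cut was made within each library, so it does not set the early genes of old and young to 1 level. Haemoglobin genes in EC-like cells stood at 602 CPM in old and 25.2 CPM in young, all 8 monocyte or macrophage markers were detected at a summed 111 CPM in old and 6 of 8 at 14.5 CPM in young, and their part in these ratios was not tested.

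**Figure D5:**
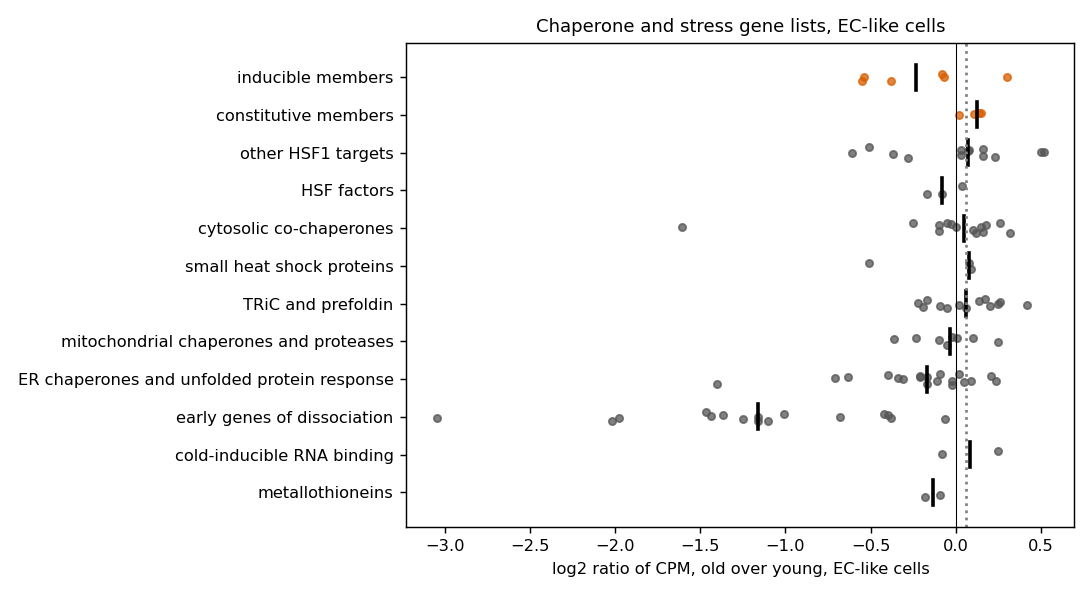
Log2 ratio of CPM, old over young, in EC-like cells (x axis) for every gene with at least 100 UMIs in each list (rows). Points are genes, black bars list medians and the dotted line the median of all genes. The early genes spread from -3.05 to -0.06, while the chaperone lists centre near 0 with single genes such as Fkbp5 at -1.61 far from it.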

How the data were processed

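Droplet 3′ libraries of cells from the aortic endothelial surface were analysed, 1 per age. The deposited files hold raw UMI counts as whole numbers for each gene in each barcode. Cell Ranger and GRCm38 are named in the submitters' processing notes, while the version used is not given in the sources used here. Total counts were 19171045 in old and 12576023 in young.

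Barcodes under 200 genes or over 10% mitochondrial UMIs were dropped (72 old, 1 young). Scrublet marked 6 barcodes in each library (0.180% of old, 0.440% of young), too few to count as a working doublet filter. Cells were clustered together (scanpy 1.11.5, 2000 variable genes less members and companion lists, 30 components, 15 neighbours, Leiden resolution 0.5) and named from marker lists. The members and lists were chosen with earlier results of these data known. Counts were summed per class and library and scaled to the class total (CPM). Ratios carry exact conditional binomial intervals and shares exact Clopper-Pearson intervals at 95%. The ratio intervals were tested on simulated Poisson counts, which hold no spread between animals or cells, and the thinning was checked on real cells. The other steps had no such test. Tallies over genes took those whose UMIs in old and young summed to 100 or more, and 0.5 on the log2 scale was the size counted. All members were named, with the 2 highest and 2 lowest genes of each companion list eligible, and the 8 genes most like the low inducible members. Promoters came from RefSeq, and gene positions and shared 3′ words from GENCODE vM21, both on GRCm38.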

Additional observations from a re-analysis of the deposited data

Results flagged for a closer look

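Hspb1 pointed in different directions in the classes: its log2 ratio of old over young was -0.08 in EC-like cells and 0.34 in fibroblast-like cells, with intervals that do not overlap. The difference was not tested, since each class of each age comes from 1 library, and the EC-like value changed sign under other settings. The fibroblast-like value was 0.29 in the cluster led by Ccl11 and Dact2. In that led by F3 and Gdf10 it was -0.05 (-0.61 to 0.48).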

How the results depend on the processing

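Dnajb1, Hsph1 and Hspa1a stayed lower, and Hsp90aa1, Hspa8, Hsp90ab1 and Hspe1 higher, in old EC-like cells in all 11 alternatives (for Dnajb1 -0.61 to -0.37, for Hspa1a -0.45 to -0.25, for Hsp90aa1 0.24 to 0.35). For some the sign held while the interval spanned 0. Hspe1 was 0.02 (-0.07 to 0.12) with a stricter cell filter and 0.13 (-0.02 to 0.29) after thinning. Hsph1 was -0.40 (-0.95 to 0.15) after thinning. Hspb1 turned from -0.08 to 0.00 with a stricter cell filter, which left 736 old endothelial cells unnamed, and to 0.02 with equal weight per cell. The sum of inducible members in EC-like cells, -0.06, turned to 0.00 and 0.03 under the same settings and was -0.12 with median ratio scaling and -0.43 for the 4 low inducible members. In fibroblast-like cells that sum, 0.09, was -0.08 after thinning, 0.24 without mitochondrial, ribosomal and haemoglobin genes, -0.33 for the 4 low members and -0.04 without Hspb1. Constitutive sums were 0.17 (EC-like, thinned, and also without those genes), 0.07 (EC-like, median ratio), 0.42 (fibroblast-like, without those genes) and 0.36 (fibroblast-like, median ratio). The inducible less the constitutive log2 ratio stayed below 0 in both classes in every setting that kept these groups, from -0.35 to -0.10.

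The inducible share in EC-like cells was 27.5% in old under the stricter filter and 28.5% in young with equal weights. It was 26.2% in old and 28.6% in young without the cells highest in Hspa1a and Hspa1b. Without those highest in the early genes Fos, Jun, Junb and Egr1 it was 25% and 27.4%. For the 4 low members it was 5.55% and 8.01%, and without Hspb1 13.4% and 14.8%. In fibroblast-like cells it was 27.5% in young after thinning, and 23.3% in young without the cells highest in the same early genes. It was 4.67% in old and 6.96% in young for the 4 low members, and 15.6% and 18.7% without Hspb1.

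With at least 20 UMIs, 1373 genes were higher and 1076 lower in old EC-like cells, and 1085 and 1915 in fibroblast-like cells. With no filter these were 2021 and 2128, and 1781 and 3140. At a log2 ratio of 1 they were 128 and 198, and 89 and 149. No paired analysis was possible because each age has 1 library. The cause of these shifts was not tested. Hspa1b and Hsph1 had under 100 UMIs in fibroblast-like cells of old and young together. Alternatives for contrasts between classes were chosen after seeing the data and kept the sign of Hspa1a, Hspb1, Dnajb1, Hsp90aa1, Hsp90ab1 and Hspe1 in both libraries.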

Other observations

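The 11 smooth muscle cells of the old library, a class too small for the comparisons above, held 102 UMIs of Hspb1, or 1559 CPM, and inducible members made up 50% of their member UMIs (44.1 to 55.9). No cell of the young library was named smooth muscle.

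The genes most like Hspb1 over thinned EC-like cells, looked up after its uneven spread was seen, were the early response genes Dusp1 (Pearson correlation 0.18 in old, 0.13 in young), Egr1 (0.15, 0.12) and Junb (0.15, 0.11), the highest among 3916 genes ranked. These correlations are weak, are over cells that share a library, and carry no test.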
